A study of Mus musculus with 4 samples.

Results

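The genes described here encode the immunoproteasome and the class I antigen presentation pathway, and were followed in mouse embryonic fibroblasts lacking Xiap and in wild-type fibroblasts. A set of 10 genes was listed by name: Psmb8, Psmb9, Psmb10, Psme1, Psme2, Tap1, Tap2, Tapbp, B2m and H2-D1. Every probe set annotated to exactly 1 of these symbols was taken. This gave 15 probe sets for 9 genes, out of 12488 probe sets and 8251 genes on the array. Psme2 was dropped, because both of its probe sets also list the near-identical Psme2b. The 4 groups were Xiap knockout fibroblasts given 20 ng/ml tumour necrosis factor (TNF) for 4 hours, unstimulated Xiap knockout fibroblasts, wild-type fibroblasts given the same TNF treatment, and unstimulated wild-type fibroblasts. TNF was given to confluent cultures. Each group was measured on 1 Affymetrix U74Av2 array, so the fold changes below cannot be checked against replicates, and precision is limited by having 4 arrays. The labels do not give the mouse strain, the number of embryos or any immortalisation. The comparisons ask whether TNF changes these transcripts and whether Xiap, an X-linked caspase inhibitor and ubiquitin ligase, alters that.

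Class I molecules display peptides from inside the cell to CD8 T cells. The peptides are cut by the proteasome, carried into the endoplasmic reticulum by the TAP transporter, and loaded by the chaperone tapasin onto a heavy chain paired with its light chain. Interferons and TNF are known to induce an alternative proteasome, the immunoproteasome, in which Psmb8, Psmb9 and Psmb10 replace the constitutive catalytic subunits Psmb5, Psmb6 and Psmb7. Promoters in this pathway are known to bind interferon regulatory factors, STAT proteins and NF-kB, the factor that TNF activates.

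Signals are MAS5 intensities on a linear scale. Signals under 92.5, the 40th percentile over all non-control probe sets, were set to that floor before log2 conversion, so a change with 1 array below the floor is a lower bound. The median signal was lower on the TNF-treated wild-type array (151) than on the others (173 to 183). Setting the arrays to equal medians moved the median log2 change of all genes with TNF in wild-type cells to 0.18, against -0.10 as analysed. Of 10 fibroblast marker genes, 9 were above the floor on every array, with Col1a1 and Col1a2, which encode the chains of collagen I, at signals of 19119 to 25901. Vim was above the floor on 1 array. Without TNF, 1 of these 10 genes was at least 2-fold higher in the knockout and 1 lower, where 4.55% and 4.7% of all genes were. S100a4 had signals of 4106 in unstimulated knockout and 1351 in unstimulated wild-type cells. For Thy1 they were 308.5 and 1120, and with TNF 219 and 1384. Of 9 macrophage and leukocyte markers, Cd14, Csf1r and Cd68 were above the floor on all arrays and Ptprc, Adgre1, Itgam and Cd3e on none, with Ptprc, which encodes the pan-leukocyte antigen CD45, at 4.5 to 9.2. The list summed to signals of 3053 in TNF-treated and 2954 in unstimulated knockout cells and of 1912 in TNF-treated and 2669 in unstimulated wild-type cells, of which Cd14 alone made up 1534 to 2402. Its part in the results was not tested. Of 6 endothelial markers none, and of 5 epithelial markers 1 (Cdh1), was above the floor on all arrays. Xiap was dim, with signals for the brightest probe set of 120 and 180.5 in TNF-treated and unstimulated knockout cells and of 126 and 239 in the corresponding wild-type cells. The deleted part of the gene is not given, so Xiap does not check the labels.

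With TNF, transcripts of most of the 9 members stood at higher levels in both genotypes. Among them the largest measured changes were in the immunoproteasome subunits Psmb8 and Psmb10 and the heavy chain gene H2-D1, while the light chain gene B2m stayed nearly level. The 10 measured other genes for peptide loading and trimming, described below, did not share this rise. Psmb9, a dim member known in knockout cells as a lower bound alone, is left out of that order. In knockout cells 7 of 9 members were at least 2-fold higher and none lower, where 1.48% of 5868 genes passed 2-fold upwards and 0.409% downwards. In wild-type cells this held for 6 of 8 measured members, again with none lower, against 2.64% of 5911 genes upwards and 2.61% downwards. The median log2 change of the measured members was 1.17 in knockout and 1.18 in wild-type cells, and that of all measured genes was -0.04 and -0.10. The knockout median was the lower bound of Psmb9, and without that gene it was 1.18 over 8 members. Of the 9 members, 8 were above the floor on all 4 arrays. Psmb9 passed through the TNF-treated knockout array alone, and without it the count in knockout cells was 6 of 8. In bulk RNA a larger share of cells with a transcript and more transcript per cell cannot be told apart. The background in wild-type cells depended on scaling, with 156 genes higher and 154 lower as analysed, 192 and 82 after quantile normalization and 283 and 68 with equal medians.

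**Figure D1:**
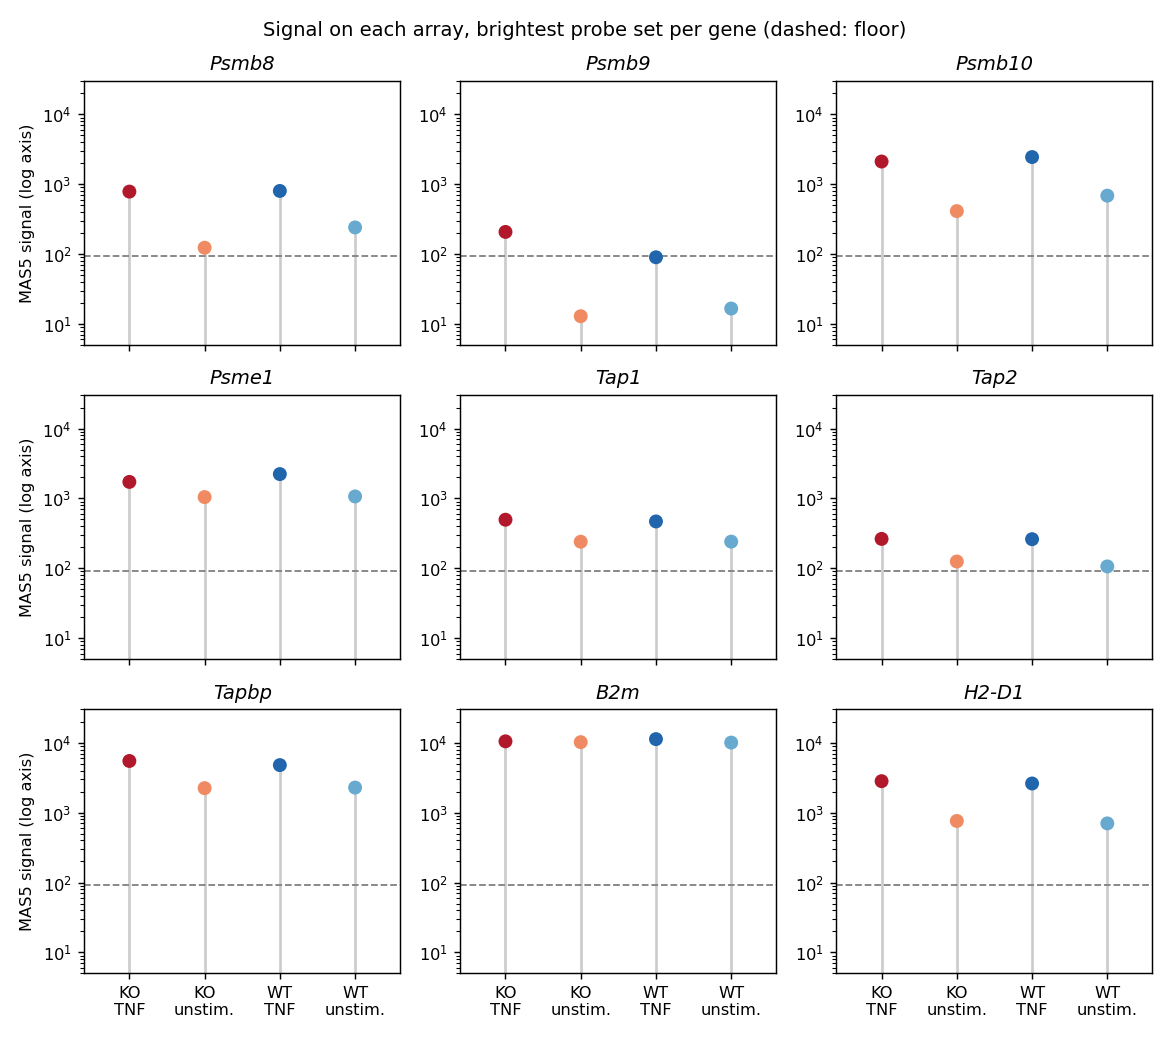
MAS5 signal (log axis) of the brightest probe set of each of the 9 genes on the 4 arrays, with 1 point per array and the dashed line at the floor of 92.5. TNF-treated arrays stand above unstimulated arrays in every panel, by a small margin for B2m, and Psmb9 exceeds the floor on 1 array.

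Psmb8 encodes the immunoproteasome counterpart of the chymotrypsin-like subunit Psmb5. Its signal was 784 in TNF-treated and 123 in unstimulated knockout cells, and 801 in TNF-treated and 241 in unstimulated wild-type cells. The treated arrays were close together and the unstimulated arrays apart, with the knockout lower. The change with TNF was thus 6.36-fold in knockout and 3.33-fold in wild-type cells, ranking 15th of 5868 and 68th of 5911 genes.

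Psmb10, the counterpart of the trypsin-like subunit Psmb7, followed the same order of arrays. Its signal was 2112.5 in TNF-treated and 412 in unstimulated knockout cells, against 2448 in TNF-treated and 686 in unstimulated wild-type cells. TNF-treated cells were 5.12-fold higher in the knockout and 3.57-fold higher in the wild type.

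Psmb9, the counterpart of the caspase-like subunit Psmb6, was dim. Its signal was 207.5 in TNF-treated and 12.9 in unstimulated knockout cells, and 90.0 in TNF-treated and 16.6 in unstimulated wild-type cells. Only the TNF-treated knockout array exceeded the floor, which gives a change of at least 2.24-fold in knockout cells. No fold is given for wild-type cells, where both arrays lay below the floor although the treated one was the brighter.

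Psme1 encodes the alpha subunit of an interferon-inducible proteasome activator that caps the core particle and opens it. Its signal was 1725 in TNF-treated and 1046 in unstimulated knockout cells, and 2232 in TNF-treated and 1069 in unstimulated wild-type cells. The unstimulated arrays nearly coincided. The change with TNF was 1.65-fold in knockout and 2.09-fold in wild-type cells, so Psme1 passed 2-fold in the wild type alone. Its difference of response was -0.34 on the log2 scale and had no test.

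Tap1 and Tap2 encode the paired subunits of the peptide transporter. In the RefSeq annotation Psmb9, Tap1, Psmb8 and Tap2 lie side by side in this order on chromosome 17, in the class II region of the major histocompatibility complex. Psmb9 and Tap1 are transcribed away from each other, and the 225 bases that separate their annotated starts (GRCm38.p6, chr17:34187331-34187555, shown on the plus strand, reading towards Tap1) are printed because they lie upstream of both genes.
Psmb9 to Tap1: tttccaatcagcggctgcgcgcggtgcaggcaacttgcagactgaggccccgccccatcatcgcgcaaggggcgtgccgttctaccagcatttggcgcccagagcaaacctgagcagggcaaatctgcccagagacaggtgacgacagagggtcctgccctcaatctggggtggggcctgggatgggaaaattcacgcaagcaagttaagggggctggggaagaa

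Tap1 had signals of 496 in TNF-treated and 240 in unstimulated knockout cells, and of 469 in TNF-treated and 241 in unstimulated wild-type cells. The genotypes were nearly equal in each state. TNF-treated cells were 2.07-fold higher in the knockout and 1.95-fold higher in the wild type, so Tap1 passed 2-fold in the knockout alone, with values on either side of the threshold by a small margin.

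Tap2 had signals of 264 in TNF-treated and 125 in unstimulated knockout cells, against 261 in TNF-treated and 106 in unstimulated wild-type cells. The treated arrays coincided, and both unstimulated arrays were near the floor. Tap2 was 2.11-fold higher with TNF in knockout and 2.45-fold higher in wild-type cells.

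Tapbp encodes tapasin, which bridges the transporter and the empty class I molecule. The signal of its brightest probe set was 5496 in TNF-treated and 2246 in unstimulated knockout cells, and 4798 in TNF-treated and 2288 in unstimulated wild-type cells. The change with TNF was 2.45-fold in knockout and 2.10-fold in wild-type cells.

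H2-D1 encodes a classical class I heavy chain. Signals of its brightest probe set were 2824 in TNF-treated and 761 in unstimulated knockout cells, and 2617 in TNF-treated and 702 in unstimulated wild-type cells. The genotypes were close in each state, with a change of 3.71-fold in knockout and 3.73-fold in wild-type cells. Class I heavy chain genes are near-identical and differ between mouse strains, so this probe set may also report relatives of H2-D1.

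B2m encodes the light chain shared by class I molecules. Its signal was 10501 in TNF-treated and 10219 in unstimulated knockout cells, and 11299 in TNF-treated and 10074 in unstimulated wild-type cells. All arrays lay within a narrow range, and the changes of 1.03-fold in knockout and 1.12-fold in wild-type cells were the smallest of the measured members.

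**Figure D2:**
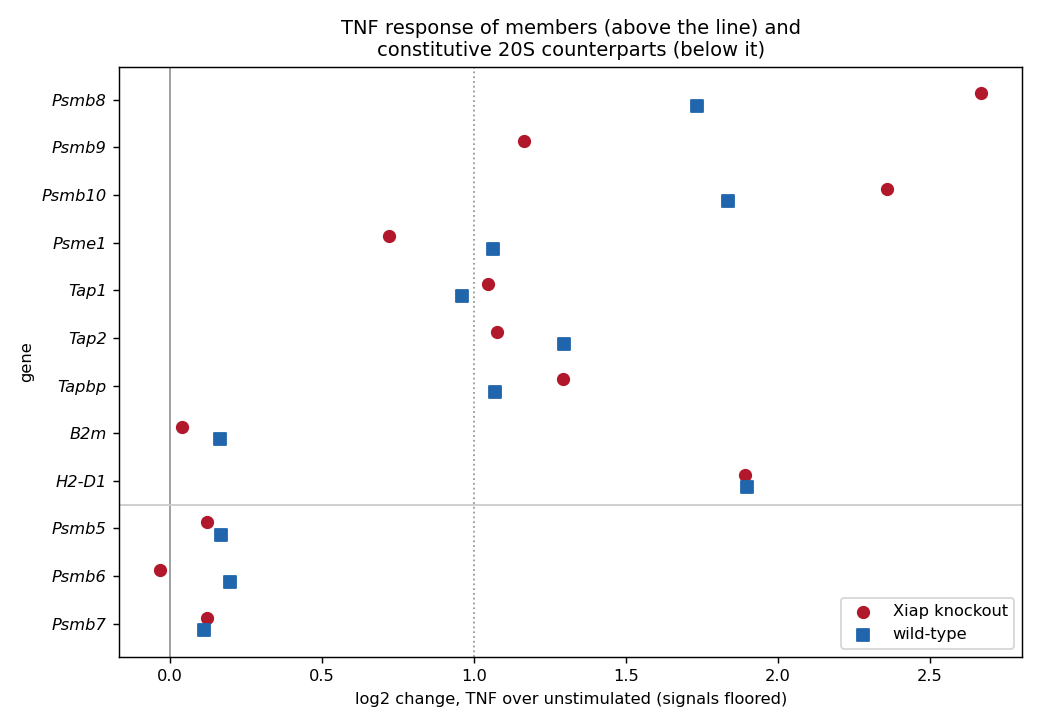
Log2 change with TNF over unstimulated, on floored signals, for the 9 genes (above the line) and the 3 constitutive catalytic subunits (below it), with circles for Xiap knockout and squares for wild-type cells (1 pair of arrays each). The dotted line marks 2-fold; Psmb9 is a lower bound in the knockout and has no wild-type value, and Psmb5, Psmb6 and Psmb7 lie between -0.03 and 0.20.

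The 250 bases before the annotated starts of H2-D1, B2m and Psmb8 are shown because, among the 8 members above the floor on all arrays, these genes had the largest change with TNF in wild-type cells, the smallest in both genotypes and the largest in knockout cells. Capitals mark matches on either strand to 4 motifs. A pair of interferon regulatory factor type motifs, which can overlap each other, is GAAA, 2 of any base and GAAA (the long form), and GAANNGAAA (the short form). The STAT type motif is TTCNNNGAA. The NF-kB type motif is GGG, 2 of any base, TT, 1 of any base and CC. The sequences are from RefSeq, build GRCm38.p6, at chr17:35262844-35263093, chr2:122147437-122147686 and chr17:34197945-34198194, all on the plus strand.
H2-D1: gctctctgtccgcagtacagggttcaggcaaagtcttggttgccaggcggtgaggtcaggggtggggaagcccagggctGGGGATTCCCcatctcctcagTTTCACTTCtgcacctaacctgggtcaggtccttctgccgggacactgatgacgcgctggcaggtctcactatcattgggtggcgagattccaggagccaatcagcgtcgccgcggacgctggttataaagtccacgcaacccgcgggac
B2m: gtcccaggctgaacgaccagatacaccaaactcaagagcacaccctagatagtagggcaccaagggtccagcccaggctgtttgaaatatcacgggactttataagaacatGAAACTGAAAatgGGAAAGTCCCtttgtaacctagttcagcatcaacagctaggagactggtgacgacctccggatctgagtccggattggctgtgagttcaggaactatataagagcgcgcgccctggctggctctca
Psmb8: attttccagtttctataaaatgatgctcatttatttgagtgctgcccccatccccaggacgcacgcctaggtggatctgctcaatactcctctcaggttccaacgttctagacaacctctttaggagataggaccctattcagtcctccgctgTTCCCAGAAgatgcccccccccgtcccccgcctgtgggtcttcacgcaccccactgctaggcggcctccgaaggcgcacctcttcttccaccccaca

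With positions counted from the gene start, H2-D1 held an NF-kB type match from -171 to -162 and the short interferon regulatory factor type motif from -150 to -142. B2m held an NF-kB type match from -126 to -117 and the long interferon regulatory factor type motif from -139 to -130. Psmb8 held a STAT type match from -97 to -89, and the stretch between Psmb9 and Tap1 held none of the 4 motifs. Psme1 held matches of both interferon regulatory factor motifs within the 50 bases after its start. Over 32851 promoter windows of 300 bases, 3.44% held the long and 7.52% the short interferon regulatory factor type motif, 8.30% the STAT type and 4.79% the NF-kB type. Of the 9 listed genes with a window (Tap2 had none), these motifs matched in 2, 2, 1 and 2 genes in the same order. A match is a description of letters and does not show binding.

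The 4 members with several probe sets did not give the same change in each. A further probe set of Tapbp had signals of 2208 in TNF-treated and 975 in unstimulated knockout cells and of 1948 in TNF-treated and 1231 in unstimulated wild-type cells, with log2 changes of 1.18 and 0.66. The remaining one gave log2 changes of only 0.14 in knockout and 0.05 in wild-type cells, although it was above the floor on all arrays (signals 522 to 660). For H2-D1 a second probe set gave 2.40-fold in knockout and 3.13-fold in wild-type cells. The remaining H2-D1 probe set exceeded the floor on the TNF-treated arrays alone, with signals of 153 in TNF-treated and 23.5 in unstimulated knockout cells and of 131 in TNF-treated and 10.0 in unstimulated wild-type cells, and was at least 1.66-fold and at least 1.42-fold higher. The second probe sets of Psme1 and Tap1 were below the floor on every array. In all, 11 of the 15 probe sets were above the floor on all arrays, 2 on some and 2 on none.

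**Figure D3:**
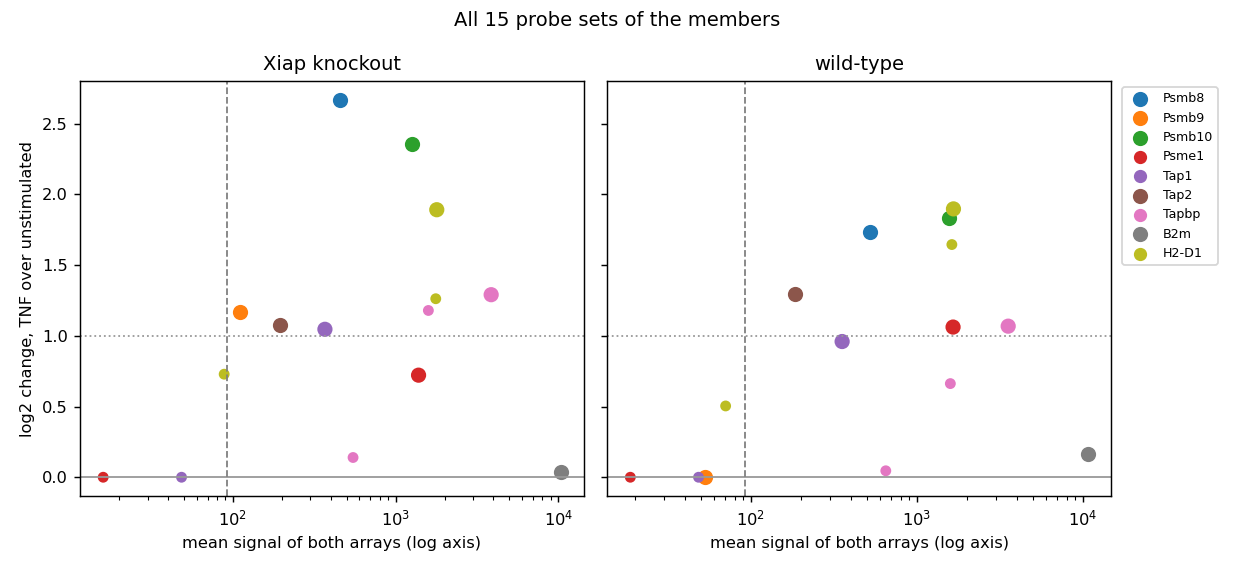
Log2 change with TNF (floored signals) against the mean signal of the pair of arrays (log axis) for all 15 probe sets, in Xiap knockout cells (left) and wild-type cells (right), coloured by gene. Large points are the brightest probe set of a gene and small points the others, the dashed line is the floor of 92.5 and the dotted line 2-fold; the dimmer Tapbp probe set at 0.14 and 0.05 lies well under its brightest one at 1.29 and 1.07. Points at 0 left of the dashed line had both arrays below the floor and no measured change.

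The only test the 4 arrays allow is an additive limma fit over 6174 measured genes, in which TNF and genotype each have 1 effect and the difference of response is the error. In it 5 of 9 members rose with TNF at an adjusted p below 0.05 and none fell, where 1.28% of all genes rose and 0.162% fell. H2-D1 rose by 1.90 on the log2 scale (SE 0.11, limma adjusted p = 0.00127), Psmb10 by 2.10 (SE 0.15, limma adjusted p = 0.00200) and Tapbp by 1.18 (SE 0.10, limma adjusted p = 0.00276). Psmb8 rose by 2.20 (SE 0.27, limma adjusted p = 0.0147) and Psme1 by 0.89 (SE 0.13, limma adjusted p = 0.0271), and each of these 5 was higher in both pairs of arrays. Tap2 (log2 effect 1.19, SE 0.21, limma adjusted p = 0.0581), Tap1 (1.00, SE 0.20, limma adjusted p = 0.0808), Psmb9 (0.58, SE 0.29, limma adjusted p = 0.408) and B2m (0.10, SE 0.09, limma adjusted p = 0.614) did not pass. The 4 misses do not show that these genes were unaffected. The Psmb9 effect averages a lower bound in the knockout and a wild-type change set to 0 by the floor. It is thus not an estimate of the TNF effect on Psmb9. Over the settings it ran from 0.58 to 3.22, with an adjusted p below 0.05 in 2 of 8 limma fits. In limma fits with other settings, 0 of 9 members passed when each gene's probe sets were averaged (7 had an unadjusted p below 0.05, as did 12.4% of all genes) and 1, H2-D1, without the intensity trend. Averaging left the effects of Psmb8 and Psmb10, with 1 probe set each, at 2.20 and 2.10, and in a fit over 8228 separate probe sets the brightest ones of 5 of 9 members passed.

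Immunosubunits and constitutive subunits changed by different amounts. Psmb5 had signals of 4814 in TNF-treated and 4422 in unstimulated knockout cells and of 3930 in TNF-treated and 3499 in unstimulated wild-type cells, a log2 change of 0.12 in the knockout and 0.17 in the wild type. Psmb6 changed by -0.03 and 0.20 and Psmb7 by 0.12 and 0.11 on the log2 scale in knockout and wild-type cells. The log2 change of Psmb8 exceeded that of Psmb5 by 2.55 in knockout and 1.57 in wild-type cells, and that of Psmb10 exceeded that of Psmb7 by 2.23 and 1.72 in the same order. Psmb9 exceeded Psmb6 by at least 1.20 in knockout cells.

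Other parts of the proteasome showed no call with TNF in the additive limma fit, and 1 gene, Psme3, passed 2-fold in wild-type cells alone. None of 3 constitutive counterparts, 11 other core subunits, 18 measured regulator subunits and 7 other activator and assembly genes passed in the additive limma fit over all genes, while 0, 2, 3 and 3 of them had an unadjusted p below 0.05, as did 14% of all genes. With equal medians 1 regulator gene and 1 activator gene passed. Median log2 changes of the 11 core subunits were 0.05 in knockout and 0.19 in wild-type cells, and of the 18 regulator subunits 0.02 and 0.26. Psme3, which encodes another proteasome activator, was 1.25-fold higher with TNF in knockout cells (1287 and 1030) and 2.02-fold higher in the wild type (signals 1314 and 649).

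**Figure D4:**
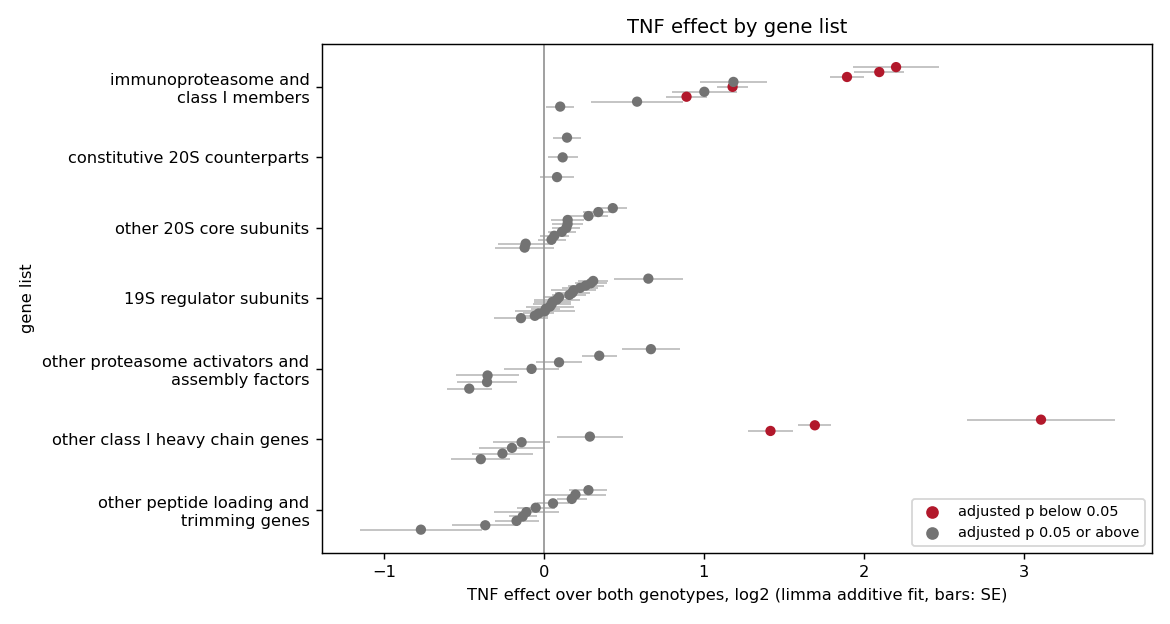
Effect of TNF over both genotypes (log2, additive limma fit on 4 arrays, bars show SE) for each measured gene of 7 lists, with 1 point per gene and red where the adjusted p over all genes is below 0.05. Red points fall among the immunoproteasome and class I genes (5 of 9) and the other heavy chain genes (3 of 8), and none in the other proteasome and peptide loading lists.

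Among other class I heavy chain genes, 3 of 8 measured genes rose in the additive limma fit and none fell. Over all genes 1.28% rose and 0.162% fell. H2-K1, a classical heavy chain gene, had signals of 3224 in TNF-treated and 1028 in unstimulated knockout cells and of 2916 in TNF-treated and 874 in unstimulated wild-type cells, changes of 3.14-fold and 3.34-fold. The effects of TNF were 1.69 for H2-K1, 1.42 for H2-Q4 and 3.11 for H2-K2 on the log2 scale (limma adjusted p = 0.00152, 0.00679 and 0.0310). H2-Q4 was 2.58-fold higher in knockout and 2.76-fold higher in wild-type cells. H2-K2 was 4.00-fold higher in knockout cells (signals 1475 and 369) and at least 18.6-fold higher in wild-type cells (1718 and 75.5, the unstimulated one below the floor). The same limits of cross-hybridisation apply to these genes as to H2-D1.

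Of 14 listed genes for other steps of peptide loading and trimming, 11 had a probe set listing 1 symbol. Erap1, Lnpep and Tapbpl had none, and Calr was below the floor on all arrays (5.6 to 19.8). Of the 10 measured genes, none passed in the additive limma fit, and 0 had an unadjusted p below 0.05. Pdia3, which encodes a disulphide isomerase of the loading complex, changed by -0.17 in knockout and -0.09 in wild-type cells on the log2 scale. Lap3, a leucine aminopeptidase gene, had a log2 change with TNF of 0.05 in knockout cells and of -1.58 in the wild type (signals 114 and 342). Of 9 class II presentation genes on the array, H2-Aa and H2-Ab1, which encode an alpha and a beta chain, were below the floor on all arrays. Of the 5 measured class II genes 1 rose in the additive limma fit, where 1.28% of all genes did. It rose by 1.76 on the log2 scale (limma adjusted p = 0.0159). That was Cd74, which encodes the invariant chain and was 4.56-fold higher with TNF in knockout and 2.52-fold higher in wild-type cells.

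Among 12 measured regulators of class I transcription, 4 rose in the additive limma fit and none fell. Over all genes 1.28% rose and 0.162% fell. Irf1, an interferon regulatory factor gene, had signals of 2748 in TNF-treated and 302 in unstimulated knockout cells and of 2566 in TNF-treated and 482 in unstimulated wild-type cells. It rose by 2.80 on the log2 scale (limma adjusted p = 0.00152). Like Psmb8 and Psmb10 it was lower in the unstimulated knockout and close between genotypes with TNF. Other regulators differed between genotypes in other ways. Under TNF 1 of the 12 was at least 2-fold higher in the knockout (Nfyb, log2 ratio 1.61) and 1 lower (Irf9, -1.35), where 5.62% and 5.01% of all genes were. The NF-kB genes Relb, Nfkb2 and Rela rose by 2.29, 1.76 and 0.85 on the log2 scale (limma adjusted p = 0.00152, 0.00276 and 0.0317).

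Of 5 interferon genes looked up on the array, Ifnb1 (10.7 to 60.9), Ifng (1.3 to 4.3) and Ifna2 (17.1 to 24.3) were below the floor on all arrays. Ifna4 was above it on 3 arrays, with signals of 101 in TNF-treated and 128 in unstimulated knockout cells and of 23.4 in TNF-treated and 120 in unstimulated wild-type cells. Ifna5 was above it on all 4, with signals of 208 in TNF-treated and 164 in unstimulated knockout cells and of 136.5 in TNF-treated and 244 in unstimulated wild-type cells. Both were dim, and whether their probe sets also report other interferon alpha genes was not tested. In the additive limma fit 1.28% of all genes rose with TNF. Of 9 measured genes for interferons, their receptors and the kinases these use, 1 did. That was Ifnar2, a type I interferon receptor gene, which rose with TNF by 2.10 and was lower in the knockout, with a log2 effect of -1.56 (limma adjusted p = 0.00740 and 0.00385), with signals of 716 in TNF-treated and 222 in unstimulated knockout cells and of 2802 in TNF-treated and 493 in unstimulated wild-type cells. Of the same 9 genes, 4 were lower in the knockout and none higher, where 10.4% of all genes were lower. They were Ifnar2, Jak1 (log2 effect -0.90, limma adjusted p = 0.00257), Ifngr2 (-0.64, limma adjusted p = 0.0138) and Ifnar1 (-0.82, limma adjusted p = 0.0228).

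Without TNF, no member differed 2-fold between genotypes, where 4.55% of 6062 genes were 2-fold or more higher in the knockout and 4.7% lower. The median log2 ratio of knockout to wild type over 8 measured members was -0.02, and that of all genes -0.01. The lowest ratios were those of Psmb8 (-0.97) and Psmb10 (-0.73), and the highest was that of Tap2 (0.23). Psme1, Tapbp, Tap1 and B2m were between -0.03 and 0.02. For Psmb8 and Psmb10 the same unstimulated knockout signals enter these ratios and their change with TNF.

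Under TNF, 5.62% of 5852 genes were at least 2-fold higher in the knockout and 5.01% lower, and of the members Psmb9 alone passed, upwards. Since Psmb9 was measured through that knockout array alone, its count is not read against these shares. Psmb9 was at least 2.24-fold higher, with the wild-type signal of 90.0 just under the floor. The other 8 members lay between -0.37 (Psme1) and 0.20 (Tapbp) on the log2 scale. The ratios of Tapbp and H2-D1 were 0.00 and -0.09 with equal medians, against 0.20 and 0.11 as analysed. Over all genes 329 were higher and 293 lower as analysed, and 240 higher and 441 lower with equal medians. The difference depends on 1 array of each genotype, and genotype cannot be told apart from any other difference between the cultures. In the additive limma fit the genotype effect passed for 0 of 9 members, where 11.4% of genes were higher and 10.4% lower in the knockout, and 1 member had an unadjusted p below 0.05, as did 35.1% of all genes. That was Psmb10, with a log2 effect of -0.47 (SE 0.15, limma adjusted p = 0.0748). Of the constitutive subunits Psmb5 was higher in the knockout by 0.32 (limma adjusted p = 0.0453), while Psmb7 had a genotype effect of -0.43 (limma adjusted p = 0.0205), both on the log2 scale.

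The difference of response, the log2 change with TNF in knockout minus that in wild-type cells, cannot be tested. It was 0.93 for Psmb8 and 0.52 for Psmb10, and for both the unstimulated signals differed more between genotypes than the treated ones. With the floor at the 60th percentile, above both unstimulated Psmb8 signals, the difference for Psmb8 was -0.03. Both unstimulated signals were then the same floor, so this value is only the ratio of the treated arrays. It does not show that the difference was absent. Among the other members above the floor it ran from -0.34 for Psme1 to 0.22 for Tapbp, with H2-D1 at -0.01. Psmb9 had a floored difference of 1.17, of unknown true size because both wild-type signals lay below the floor. Over all 6174 genes 2.53% had a response at least 2-fold larger and 1.13% one at least 2-fold smaller. Psmb9 was the only member past 2-fold and, with its wild-type change set to 0 by the floor, is not read against these shares. The split of larger and smaller responses over all genes was 156 and 70 as analysed, 102 and 102 after quantile normalization and 88 and 148 with equal medians.

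Outside the pathway, the 5 measured genes whose centred log2 profile over the 4 arrays lay nearest to the median profile of the members were S1pr3, Mvp, Birc2, Plxnd1 and Il15ra. Their Euclidean distances were 0.17, 0.19, 0.23, 0.24 and 0.28 on the log2 scale, over 4 arrays. S1pr3, a sphingosine phosphate receptor gene, was nearest, with signals of 1140 in TNF-treated and 436 in unstimulated knockout cells and of 971 in TNF-treated and 452 in unstimulated wild-type cells. Il15ra, an interleukin receptor gene, had signals of 533 in TNF-treated and 219 in unstimulated knockout cells and of 432 in TNF-treated and 175 in unstimulated wild-type cells. With 4 values per gene, nearness of profiles is a description only.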

How the data were processed

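RNA from 4 cultures was hybridised to 4 single-colour arrays, 1 per group, grouped by title. The authors deposited intensities on a linear scale, and the submitters' processing notes name MAS5. Its version was not given in the sources used here, and no detection calls were used. The deposited columns share a trimmed mean of 500.3 (2% left out at each end), so rescaling to it changed nothing (factor 1.0). Control probe sets (66) were left out. A symbol was listed alone for 10833 probe sets, with others for 396 and not at all for 1193. A gene was represented by its brightest probe set. All 9 members matched the RefSeq gene table by Entrez identifier. Signals were floored at 92.5 and log2-transformed, and changes of 2-fold counted. A gene was measured where an array compared was above the floor. The additive fit used limma 3.58.1 in R 4.3.3 (lmFit, eBayes with trend, 2-sided, Benjamini-Hochberg over 6174 genes, threshold 0.05), with 1 residual and 5.62 prior degrees of freedom. It was tested on simulated data with the same response in both genotypes. That cannot show how it behaves where the response differs between genotypes. The error behind the p-values is each gene's difference of response, moderated by that of other genes. Nothing says that the cultures came from separate animals, so the p-values measure neither the spread between animals nor that between replicate arrays. Named genes were all members, up to 4 genes past 2-fold per context list and comparison, Xiap and the 5 nearest profiles, of which those bearing on the members are given. Members, lists, motifs and tests were chosen with earlier results of these data known. Alternatives were other scalings, floors, probe set rules, thresholds and variance models.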

Additional observations from a re-analysis of the deposited data

Results flagged for a closer look

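Probe sets annotated to several genes lay outside the comparisons above, and those that list a pathway gene and were brighter with TNF were looked at again. The probe set that lists Psme2b and Psme2 together had signals of 1335 in TNF-treated and 935 in unstimulated knockout cells and of 1383 in TNF-treated and 986.5 in unstimulated wild-type cells, log2 changes of 0.51 and 0.49. A probe set that lists 10 symbols, H2-D1 among them, had signals of 1005 in TNF-treated and 648 in unstimulated knockout cells and of 1286.5 in TNF-treated and 728 in unstimulated wild-type cells, log2 changes of 0.63 and 0.82. Each is under 2-fold, rests on 1 array per group, and cannot be assigned to 1 gene.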

How the results depend on the processing

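No paired analysis was possible because each group has 1 array and the labels carry no replicate numbers that pair arrays, and for the same reason no array could be left out of the fit. The count of members at least 2-fold higher with TNF stayed within 1.5 times its value under all alternatives, except in knockout cells with a floor at the 60th percentile (4, where 7 members were measured). With the mean of all probe sets it fell to 5 of 9 in knockout and 4 of 8 in wild-type cells. The median log2 change of the members in wild-type cells was then 0.94. The 1 member higher in the knockout under TNF, and the 1 with a larger response, became 0 with quantile normalization and 0 with the floor at the 60th percentile. Both counts were also 0 without Psmb9, an alternative chosen after seeing the data. At a 1.5-fold threshold 2 of 9 members, Psmb8 and Psmb9, had a larger response, where 10.9% of genes did. The wild-type change of Psmb9 was set to 0 by the floor, so this count is not read against that share. At the same threshold 2 of 8 members were lower in the unstimulated knockout, where 12.4% of genes were. In the limma fit of the TNF effect, 8 members passed with equal medians (where the estimated prior degrees of freedom were infinite), 0 with the mean of all probe sets and 1 without intensity trend, where 371, 6 and 18 genes passed in all, 156 with quantile normalization and 89 as analysed. For the genotype effect 1 member passed with equal medians, and the 1351 genes in all became 893 with the mean of all probe sets and 887 without trend. Adjusted p over the alternatives ran from 1.19e-20 to 0.0835 for H2-D1, from 1.75e-24 to 0.0732 for Psmb10, from 5.60e-20 to 0.148 for Psmb8, from 1.56e-07 to 0.210 for Tapbp and from 2.26e-05 to 0.378 for Psme1, the lowest with equal medians. No called value changed sign. The floor limits Psmb9, whose knockout log2 change was 3.34 with a floor at the 20th percentile and 4.01 with none.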
